A study of Drosophila melanogaster with 2 samples.

Results

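The 8 genes described here were Lk6, Shc, S6k, Akt, InR, Tor, foxo and Thor, which act in growth factor, insulin and TOR signalling in Drosophila melanogaster. They were 8 of 18164 annotated genes on the 6 major chromosome arms. Lk6 and Shc were chosen by the signal of their peaks in these same lists, so their high values are a description and not a finding. The other 6 were chosen as named genes of the insulin and TOR pathway, with results of these data known. For each gene, every peak summit in the gene body or within 2 kb of either end was taken.

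Chromatin immunoprecipitation followed by sequencing (ChIP-seq) recovers DNA bound by a tagged protein. Here the protein was that of CG4282, a zinc finger protein gene, with GFP fused to its C-terminal end in 1 transgenic line, and it was precipitated with an antibody against GFP from whole embryos of mixed sex, aged 0 to 24 h. The labels give 2 biological replicates of 1 group, numbered 3 and 4, and no untagged or input library was among the samples, so no group was compared with another and no test was made. The files were peak lists, which hold no marker of a cell type, and a pool of whole embryos of that age range mixes tissues and stages.

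Insulin-like peptides bind InR, a receptor tyrosine kinase, which acts through PI3 kinase to activate the kinase Akt. Akt phosphorylates the transcription factor encoded by foxo and keeps it out of the nucleus. The Tor kinase phosphorylates S6k, a kinase that promotes translation and growth, and the product of Thor, 4E-BP, which binds and blocks the cap-binding factor eIF4E. Shc is an adaptor that links receptor tyrosine kinases to Ras signalling. Lk6 is the fly relative of the mammalian Mnk kinases, which bind MAP kinase and phosphorylate eIF4E. In flies the foxo product is known to activate InR and Thor.

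Each peak carries a signal, the authors' own enrichment value, which served here only for ranks and levels inside 1 list. A lower rank number means a stronger peak. The optimal list held 1985 peaks with signals of 66.9 to 1065 and a median of 93.8, and these were the strongest 1985 of the 30000 pooled peaks, whose median was 28.1. Replicates 3 and 4 were listed apart with 30000 peaks each, with medians of 9.57 and 21.0. All coordinates are dm6 and 1-based. The lists do not share a scale, so a signal in one replicate is not compared with a signal in the other, and the depth behind each peak is unknown.

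The sequences around the optimal summits of Lk6, Shc, Tor, Akt and foxo and around 2 intronic optimal summits of InR are shown because these are the sites the results turn on. Each holds the summit and 50 bases on either side, from the RefSeq genome of the dm6 assembly and written 5′ to 3′ on the strand of the gene. The positions are chr3R:11760989-11761089 (minus strand) for Lk6, chr3L:9426835-9426935 (plus) for Shc, chr2L:13004143-13004243 (plus) for Tor, chr3R:16097789-16097889 (plus) for Akt and chr3R:14088913-14089013 (plus) for foxo. Those of InR are chr3R:21590794-21590894 and chr3R:21613422-21613522, both on the minus strand. Capitals mark matches to one of 10 motifs listed further on, and a window with no capitals held none of them.
Lk6, intron: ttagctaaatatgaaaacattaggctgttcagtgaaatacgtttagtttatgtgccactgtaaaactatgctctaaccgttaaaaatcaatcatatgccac
Shc, upstream: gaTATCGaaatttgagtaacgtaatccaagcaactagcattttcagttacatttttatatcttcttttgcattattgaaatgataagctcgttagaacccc
Tor, upstream: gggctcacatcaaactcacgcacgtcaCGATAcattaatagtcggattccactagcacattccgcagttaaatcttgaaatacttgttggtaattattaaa
Akt, upstream and inside Mhcl: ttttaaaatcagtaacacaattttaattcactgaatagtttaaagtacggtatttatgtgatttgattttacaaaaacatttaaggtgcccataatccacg
foxo, past the 3′ end: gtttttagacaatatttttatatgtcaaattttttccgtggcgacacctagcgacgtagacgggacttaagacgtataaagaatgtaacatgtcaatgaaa
InR, near the inner promoters: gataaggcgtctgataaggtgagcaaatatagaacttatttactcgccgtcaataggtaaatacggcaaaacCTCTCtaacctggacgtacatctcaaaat
InR, first intron: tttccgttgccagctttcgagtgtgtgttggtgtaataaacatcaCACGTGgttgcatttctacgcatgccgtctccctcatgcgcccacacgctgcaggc

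All 8 genes had an optimal summit in the gene body or within 2 kb. Of all 14257 genes with a pooled summit in that region, 3410 had an optimal one, or 23.9%. Because Lk6 and Shc were picked for strong peaks and the others with results known, nothing is read from that count. The pooled list had 91 summits at the 8 genes, of which 10 were optimal, 3 at InR and 1 at each of the other genes. Over the whole pooled list, 1985 of 30000 peaks were optimal, and for the same reason nothing is read from the 10. Replicate 3 had 76 summits there and replicate 4 had 84. The median of the strongest pooled signal per gene was 90.1 over the 8 genes, 82.1 over the 6 other than Lk6 and Shc, and 40.3 over all genes with a summit.

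**Figure D1:**
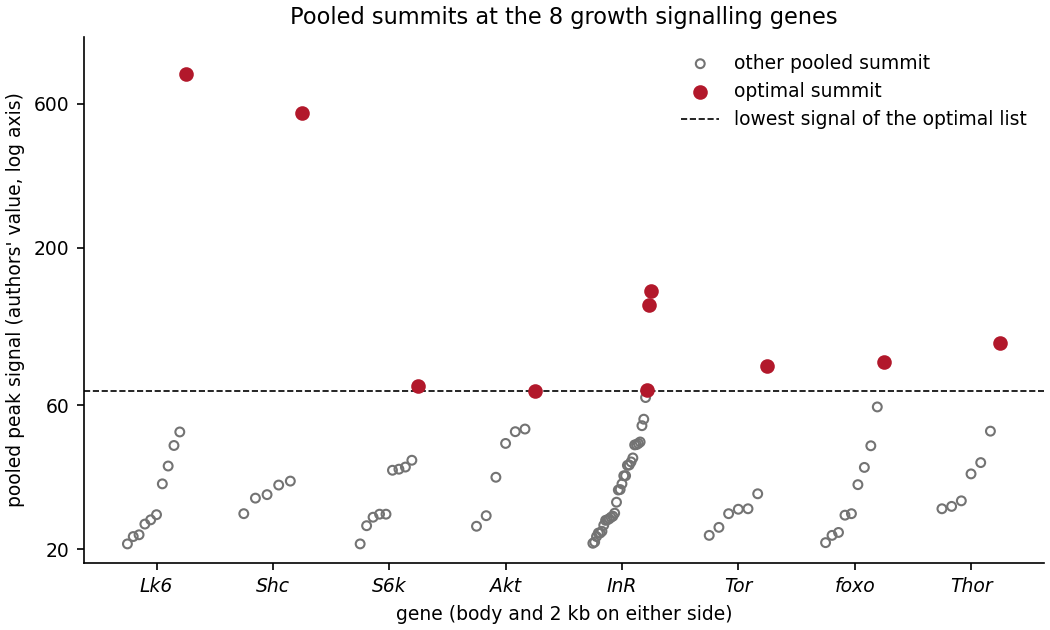
Pooled peak signal (log axis, the authors' value) of all 91 summits at the 8 genes, sorted within each gene from low to high. Filled points are the 10 optimal summits and open points the others, and the dashed line is the lowest optimal signal, 66.9. Lk6 (754) and Shc (560) each have 1 point far above their other summits, while the best points of Akt (67.0) and S6k (69.6) lie just above the line.

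The optimal summits fell into a wide range of strength. At the top, Lk6 was at pooled rank 5 and Shc at 11. The 2 strongest of InR were at 389 and 515, and Thor, foxo and Tor followed at 928, 1274 and 1352. At the bottom, S6k was at 1812, the third optimal summit of InR at 1956 and Akt at 1972 of 1985. The members just inside the limit of the optimal list were thus S6k (signal 69.6), InR (67.2) and Akt (67.0), and just outside it were a further summit of InR (63.6) and one of foxo (59.2).

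Lk6 (FBgn0017581, 3R, 11750931 to 11764457, minus strand, 13527 bp) has 2 annotated transcription start sites (TSS). Its optimal peak, at 11760903 to 11761194, was 292 bp wide with its summit at 11761039. That position is in intron 1 of the transcript from the outer TSS, 3418 bp downstream of it, and 960 bp upstream of the inner TSS. The signal was 754 in the pooled list. In replicate 3 it was 354, rank 4, with the summit 4 bp away, and in replicate 4 it was 402, rank 6, with the summit 9 bp away. Both replicates therefore had the peak among their strongest 6.

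The Lk6 peak stood alone within its gene. The next of its 11 pooled summits had a signal of 48.9 (rank 3813), so the strongest was 15.4 times the second. Of all 11 summits, 5 lay in coding exons, 4 in introns, 1 in a 5′ UTR and 1 upstream. For 6 of the 11, both replicates had a summit within 200 bp, and for 2 neither had one. No pooled summit lay within 500 bp upstream of the outer TSS. The summit nearest to it upstream was 835 bp away, had a pooled signal of 22.0 and was in neither replicate. Replicate 3 alone listed a weak summit 110 bp upstream of the outer TSS (signal 6.79, rank 28677). A strongest signal as high as that of Lk6 was found at 9 of 14257 genes, 0.0631%, with Lk6 itself among them. Among genes of 5 to 20 kb, its own length class, the share was 0.125%. Lk6 was chosen by this same signal, so both shares are a description. A peak near 2 genes was counted for each of them.

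Shc (FBgn0015296, 3L, 9427010 to 9428671, plus strand, 1662 bp) has 1 TSS, and its optimal peak lay just upstream of it. The peak spanned 9426772 to 9427030, 259 bp, with the summit at 9426885, 125 bp upstream of the TSS. Atat, which encodes a tubulin acetyltransferase, starts on the opposite strand at 127 bp and 208 bp from the same summit, so the nearest starts of the 2 genes are 252 bp apart. The peak cannot be assigned to one of them from these data. Its signal was 560 in the pooled list. It was 268 (rank 11) in replicate 3 and 290 (rank 19) in replicate 4, with summits 3 bp and 0 bp away.

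As at Lk6, the other summits around Shc were low. The second of 6 pooled summits had a signal of 33.6 (rank 9482), and the strongest was 16.7 times as high. A single summit lay inside the gene, in a coding exon 661 bp downstream of the TSS, at 26.2 in the pooled list and in replicate 4 alone. The 3 summits downstream of the gene had signals of 29.5 to 32.6. The region of 2 kb on either side also holds the start of MTF-1, a metal-responsive transcription factor gene, and the nearest TSS was that of Shc for only 2 of the 6 summits. A strongest signal as high as that of Shc was found at 21 of 14257 genes, or 0.147%, and at 0.101% of genes under 5 kb. Shc was chosen by this same signal, so both shares are a description. Shc itself is among the 21, and so is Atat, for which the same peak was counted.

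Genes whose strongest summit ranked most like that of Lk6 (4 in replicate 3 and 6 in replicate 4) were Chro and Ssl1, both at 6 and 8, and px at 7 and 5. Chro and Ssl1 share both ranks because the same peak was counted for each, so they are not separate cases. Chro encodes a chromodomain protein of chromatin and the spindle, and Ssl1 a subunit of the general transcription factor TFIIH. The larger of the 2 absolute log2 rank ratios was 0.58 for Chro and Ssl1 and 0.81 for px. For Shc (11 and 19), Atat had the same ranks because the same peak was counted for it, and CG3277 (12 and 17) was at 0.16. CG9663 had the same ranks and ratio as CG3277, again because the same peak was counted for both. Likeness here rests on 2 replicates only.

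**Figure D2:**
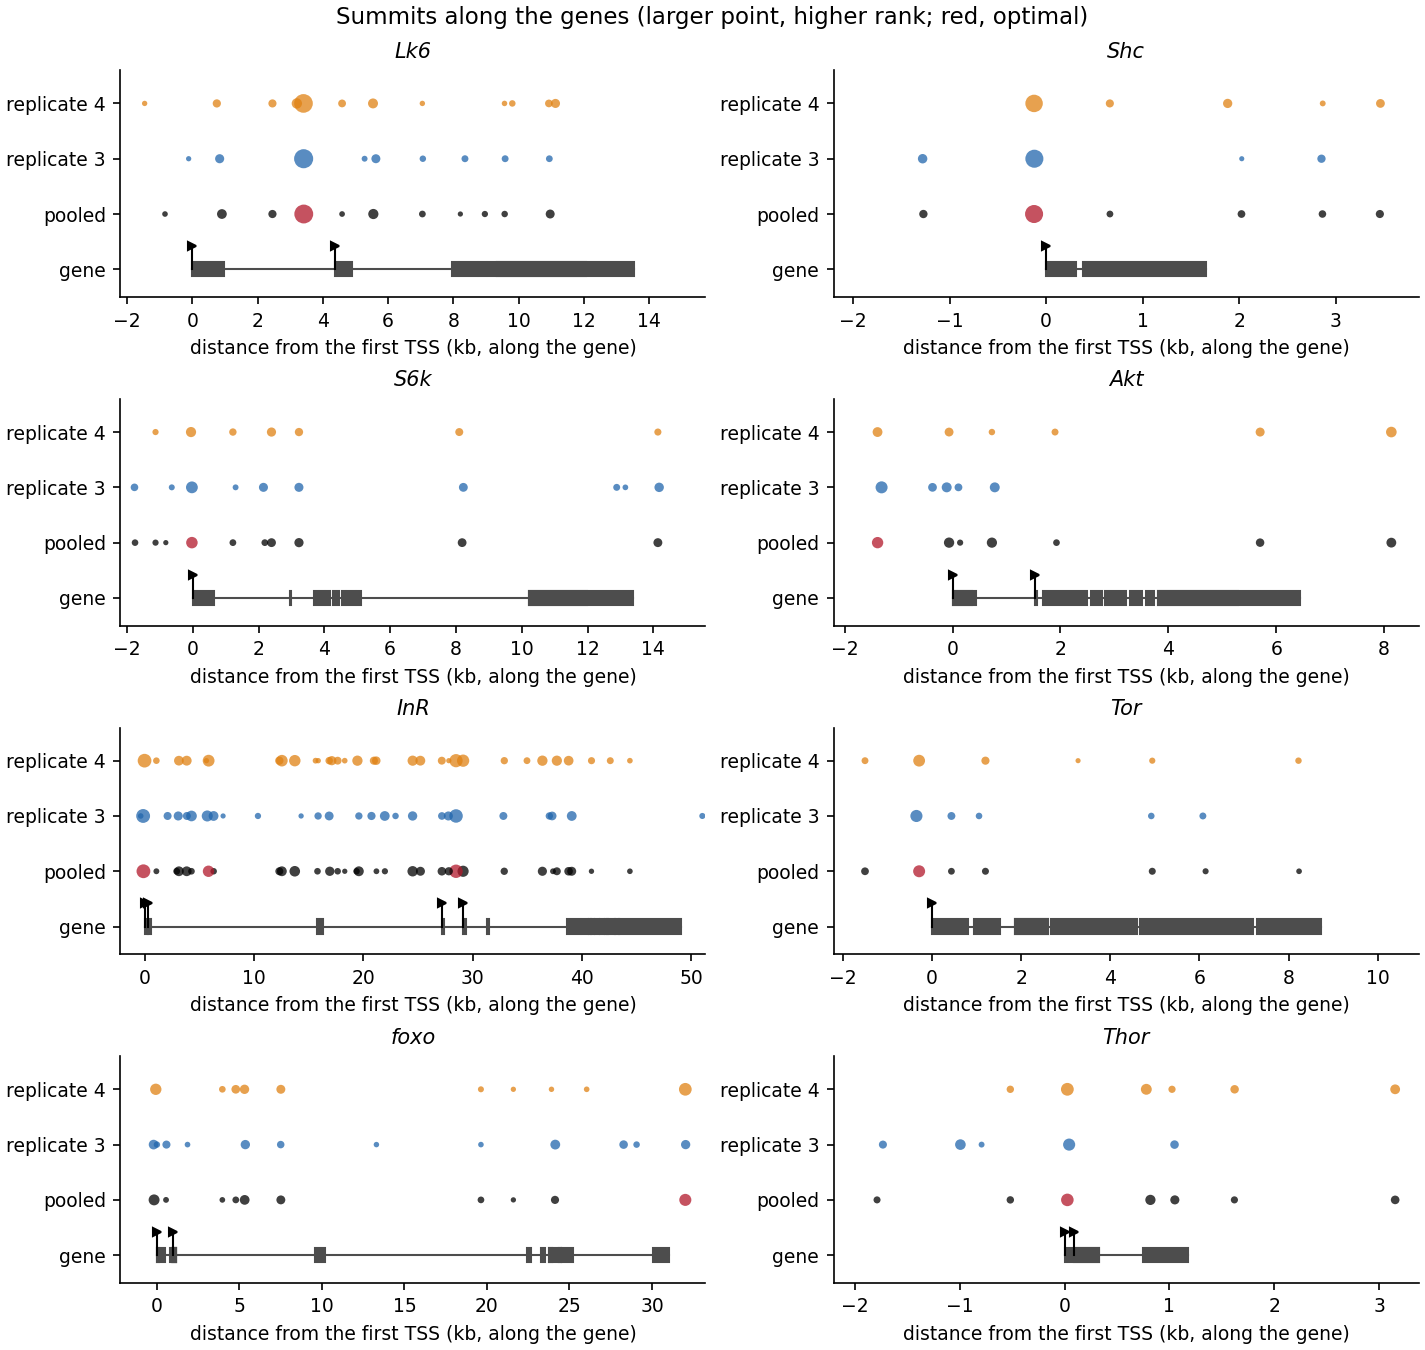
Summits along each gene by distance from its first TSS (kb, in the direction of transcription) in the pooled list and in replicates 3 and 4. Larger points have higher ranks, red points are optimal, boxes are exons and flags are TSSs. Lk6 and Shc show 1 large point at the same place in all 3 lists, InR shows points along its whole length, and the optimal summit of foxo lies past the end of the gene.

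InR (FBgn0283499, 3R, 21570248 to 21619321, minus strand, 49074 bp) has 4 TSSs and was the gene with the most summits, 33 in the pooled list, 27 of them in introns. Its 3 optimal summits stood at different places. The strongest, at 21619421, was 100 bp upstream of the outermost TSS and 385 bp upstream of the next, with a pooled signal of 144. It had 64.3 (rank 373) in replicate 3 and 83.1 (rank 420) in replicate 4. The second, at 21590844, was in an intron of the longer transcripts, 653 bp upstream of the innermost TSS and 1277 bp downstream of another, with a pooled signal of 129. It had 56.8 (rank 489) in replicate 3 and 71.7 (rank 589) in replicate 4. Both of these, at the outer promoter and near the inner ones, were thus well within the strongest 1985 peaks of each replicate.

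The third optimal summit of InR, at 21613472, was in the first intron, 5564 bp downstream of the nearest InR TSS. Its signal was 67.2 in the pooled list, near the end of the optimal list. The ranks were 2378 in replicate 3 (signal 24.6) and 1492 in replicate 4 (48.6), so in replicate 3 it fell outside the strongest 1985.

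Several InR summits outside the optimal list were seen in 1 replicate. One at 21590198, 7 bp upstream of the innermost TSS, had a pooled signal of 63.6 (rank 2196) and was at rank 1108 in replicate 4, while replicate 3 had no summit within 200 bp. Intronic summits with pooled signals of 53.9 and 44.8 (ranks 3085 and 4627) were at ranks 1889 and 1694 in replicate 4 and likewise had none in replicate 3. Of all 33 summits, 12 had a summit of both replicates within 200 bp. The density, 6.22 pooled summits per 10 kb of the region searched, was close to that of Lk6 (6.28) and Akt (6.70), so per length searched InR did not have more summits than they did. A strongest signal as high as that of InR was found at 5.69% of all genes and at 10.1% of genes of 20 kb or more.

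Akt (FBgn0010379, 3R, 16099228 to 16105670, plus strand, 6443 bp) had the lowest strongest signal of the 8 genes, and that summit was not at its promoter. The optimal peak, at 16097639 to 16098038, had its summit 1389 bp upstream of the nearest Akt TSS. It lay inside Mhcl, a myosin heavy chain-like gene on the opposite strand, 922 bp downstream of a Mhcl TSS. The pooled signal was 67.0. It had 34.2 (rank 1312) in replicate 3 and 31.6 (rank 4672) in replicate 4, so it was within the strongest 1985 of replicate 3 alone. The summit at the Akt promoter itself, 64 bp upstream of the TSS, had a pooled signal of 50.0 (rank 3612) and ranks of 4341 and 7487 in replicates 3 and 4. In replicate 4 the strongest summit of the region was elsewhere, past the end of the gene at 16107362, with a signal of 36.8 (rank 3014).

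foxo (FBgn0038197, 3R, 14056945 to 14087978, plus strand, 31034 bp) was similar in that its optimal summit was outside the gene and not within 500 bp of its own TSSs. The optimal peak, at 14088763 to 14089162, had its summit 985 bp past the end of foxo and 554 bp upstream of Npc2b, which encodes a sterol-binding protein and is on the same strand. Its pooled signal was 83.4. It was at rank 834 in replicate 4 (signal 62.4) and at rank 6136 in replicate 3 (14.6), the widest gap in rank of the 10 optimal summits. At the foxo promoter, a summit 163 bp upstream of the TSS had a pooled signal of 59.2 (rank 2536), with ranks of 4962 in replicate 3 and 2005 in replicate 4. The strongest foxo summit of replicate 3, in a coding exon, was at rank 4642. No summit of foxo was therefore among the strongest 1985 of replicate 3. With 2.85 pooled summits per 10 kb, foxo had the lowest density of the 8 genes.

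S6k (FBgn0283472, 3L, 5797549 to 5810931, minus strand, 13383 bp) had its optimal summit at 5810959, 28 bp upstream of its TSS. kri starts on the other strand 14 bp from the summit, and the 2 starts are 42 bp apart. The pooled signal was 69.6. In replicate 3 it was 31.7 (rank 1508) and in replicate 4 it was 33.9 (rank 3860). S6k was thus within the strongest 1985 of replicate 3 and outside them in replicate 4. The second summit, 3227 bp downstream of the TSS in an intron, had a signal of 39.4.

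Tor (FBgn0021796, named mTor in the annotation, 2L, 13004480 to 13013197, plus strand, 8718 bp) had its optimal summit at 13004193, 287 bp upstream of its TSS. Vha68-1, a gene for a subunit of the vacuolar ATPase, starts on the opposite strand 86 bp from the summit, and the starts are 373 bp apart. The pooled signal was 80.9. The replicates were close in rank, with 1228 in replicate 3 (signal 35.3) and 1499 in replicate 4 (48.5). Apart from it, Tor had 6 pooled summits, 5 of them in coding exons, with signals of 22.2 to 30.5.

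Thor (FBgn0261560, 2L, 3478434 to 3479612, plus strand, 1179 bp) has 2 TSSs, and its optimal summit at 3478461 lay between them, in the 5′ UTR 27 bp downstream of the first and 61 bp upstream of the second. Its pooled signal was 96.8. It ranked 1246 in replicate 3 (signal 35.1) and 794 in replicate 4 (63.4). A further summit in the coding exon, 731 bp downstream of the second TSS, had a pooled signal of 49.2 and was at rank 2601 in replicate 4, with none of replicate 3 within 200 bp. A strongest signal as high as that of Thor was found at 12.7% of all genes and at 10.8% of genes under 5 kb.

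Read against all genes, the strongest signals of Tor, foxo, S6k and Akt were not rare. A strongest signal at least as high was found at 17.2% of all genes for Tor, 16.4% for foxo, 22.1% for S6k and 23.8% for Akt. Within genes of like length the shares were 23.8% for Tor, 27.9% for foxo, 30.4% for S6k and 32.5% for Akt.

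The 2 replicates gave different subsets of the 8 genes. Within the strongest 1985 peaks of replicate 3, 7 of the 8 genes had a summit, all but foxo, while 23.6% of the 14314 genes with a replicate 3 summit in that region did. Within the strongest 1985 of replicate 4, 6 of the 8 did, all but S6k and Akt, against 23.3% of 14334 genes. Lk6, Shc, InR, Tor and Thor were in both. The 8 genes were chosen for strong peaks or with results of these data known, so nothing is read from these counts against the shares over all genes.

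**Figure D3:**
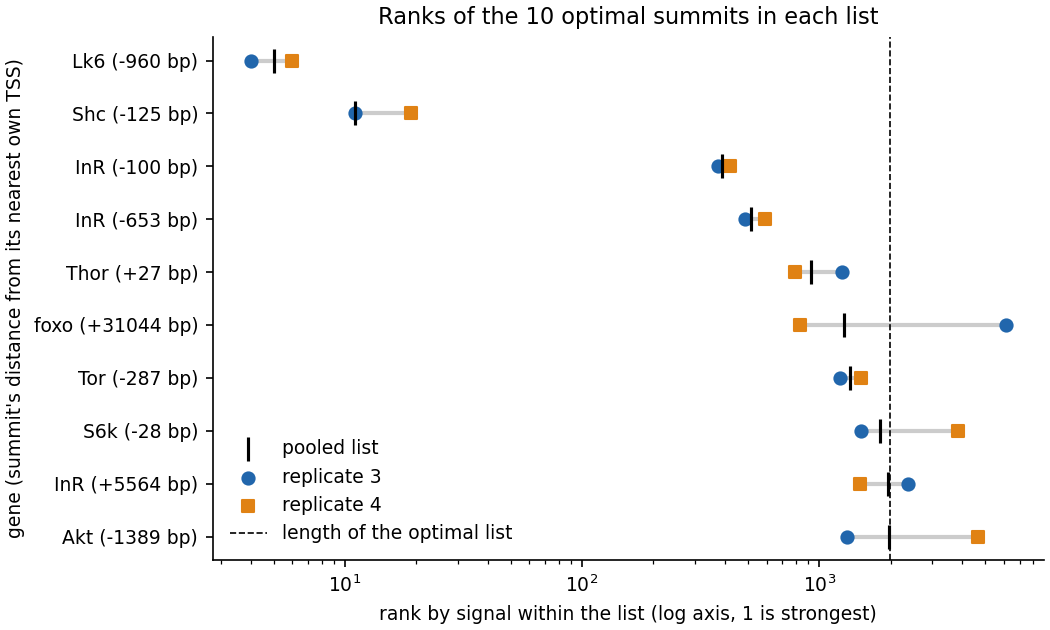
Rank by signal (log axis, 1 is strongest) of the 10 optimal summits of the 8 genes in the pooled list and in replicates 3 and 4, with the distance of each summit from the nearest TSS of its gene (minus is upstream). The dashed line is rank 1985, the length of the optimal list. The 2 strongest summits of InR (373 and 420, 489 and 589 in replicates 3 and 4) and Tor (1228 and 1499) have close ranks in both replicates, Lk6 and Shc are within the strongest 19 in both, while foxo spans 834 to 6136 and S6k and Akt each have the point of replicate 4 right of the line.

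Below the optimal list the replicates shared fewer summits. Each of the 10 optimal summits had one of both replicates within 200 bp. Of the 81 other summits of the 8 genes, 29 did. Over all optimal peaks the share was 99.3%, and over the pooled peaks outside the optimal list it was 39.3%. The optimal list was made with a threshold on reproducibility between replicates. Its higher share was therefore largely fixed in advance and is not a finding. Of the 91 summits, 17 were matched in replicate 3 alone, 33 in replicate 4 alone and 2 in neither. Among all 30000 pooled peaks, 4756 were matched in replicate 3 alone and 10913 in replicate 4 alone. The excess of summits seen in replicate 4 alone was thus a property of the whole pooled list too.

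By position, 44 of the 91 summits lay in introns, 16 in coding exons, 15 in the upstream flank, 8 in the downstream flank, 6 in 5′ UTRs and 2 in 3′ UTRs. InR alone held 33 of the 91 summits and 27 of the 44 in introns. The nearest TSS was that of the gene itself for 49 of the 91. Shares over all pooled peaks are not given for these places, so the counts are a description. Within 500 bp of a TSS of its own, 5 of the 8 genes had an optimal summit, namely Shc, S6k, InR, Tor and Thor, while 20.7% of the 8405 genes with a pooled summit there did. Because of how the 8 genes were chosen, nothing is read from that difference. At Lk6, Akt and foxo the optimal summit was farther away. With the gene body alone, without flanks, 3 genes had an optimal summit, which were Lk6, InR and Thor. No share over all genes is given for that setting, so nothing is read from that count.

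At 3 of the 5 genes with an optimal promoter summit, a second gene starts on the opposite strand within 500 bp of it. These are the pairs Shc and Atat, S6k and kri, and Tor and Vha68-1. Starts on both strands were found at 37.2% of the 1294 optimal summits that lay within 500 bp of any TSS, so 3 of 5 is too few to set apart from that share. At these 3 pairs the peak cannot be given to one gene.

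In base composition, the 10 optimal windows of 50 bases on either side of the summit had a median GC content of 39.1%, within a range of 26.7% to 56.4%. All optimal windows had a median of 39.6%, and the pooled windows outside the optimal list had 49.5%. The lowest value was at Akt (26.7%), with 31.7% at Shc and 32.7% at Lk6, and the highest was at S6k (56.4%).

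The motifs searched, on both strands, were the DNA replication-related element DRE (TATCGATA), the core bound by the insulator protein BEAF-32 (CGATA, contained in DRE), GAGA factor (GAGAG), Zelda (CAGGTAG), the E-box (CACGTG), a FoxO element (GTAAACA), AP-1 (TGANTCA) and the words CACAGTGG, CACTGTGC and CAACACTG. Those words were found frequent in optimal peaks of these data beforehand. Matches are a description of letters and not of binding.

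The same windows of the 8 genes held 4 matches. The BEAF-32 core was at Shc, where its first base was 48 bp upstream of the summit along the gene (TATCG, which is CGATA read on the other strand), and at Tor, 23 bp upstream of it. It was in 21.0% of all optimal windows and 12.6% of other pooled windows. GAGAG, as CTCTC on the strand shown, was at the InR summit 21590844, and was in 12.7% of all optimal and 14.7% of other pooled windows. CACGTG was at the first intron summit of InR, 5 bp upstream of the summit, and was in 1.31% of all optimal and 1.64% of other pooled windows. No match was found in the windows of Lk6, S6k, Akt, foxo or Thor.

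The FoxO element was in none of the 10 windows, while 4.08% of optimal and 2.12% of other pooled windows held it. With 100 bases on either side of the summit it was at Thor and at Lk6, with 7.30% of optimal and 4.16% of other pooled windows holding it. The 3 words were in none of the 10 windows. They were in 4.94% (CACAGTGG), 5.09% (CACTGTGC) and 3.58% (CAACACTG) of all optimal windows, so their absence from 10 windows says little. DRE, in 3.93% of optimal windows, was not in the narrower window at Shc but lay 75 bp from its summit in the wider window.

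The wider pathway was described with 5 lists of 81 genes that leave out the 8 genes above. Of these, 80 were matched to the annotation and 72 had a pooled summit in the gene body or within 2 kb. An optimal summit was found for 34 of the 72, or 47.2%, against 23.9% of all genes with a pooled summit. The lists were chosen with earlier results of these data known, and all genes include non-coding ones. The shares are therefore a description, and no enrichment of the pathway is read from them. The median of the strongest signal was 63.1 over the 72 genes, against 40.3 over all genes. The pathway genes were also longer, with a median of 6630 bp against 1986 bp. Within length classes, the count was 9 of 28 pathway genes under 5 kb (32.1%, against 20.6% of all genes), 14 of 32 genes of 5 to 20 kb (43.8%, against 32.7%) and 11 of 12 genes of 20 kb or more (91.7%, against 38.5%). The region count also takes in summits nearer to the start of another gene, as at alc and mio below, and this holds for all genes too. At promoters the share was nearer to the background, with 15 of 58 pathway genes, 25.9%, against 20.7%.

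**Figure D4:**
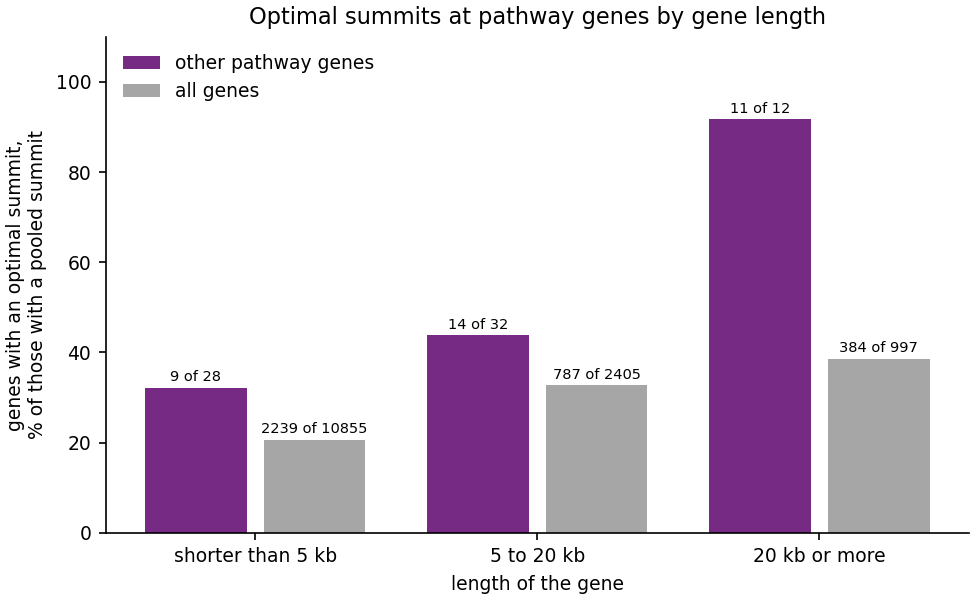
Share of genes with an optimal summit in the gene body or within 2 kb, in percent of those with a pooled summit there, for the other pathway genes and all genes in 3 classes of gene length. Numbers over the bars are the counts behind each share. The pathway bar is the higher one in each class, with 11 of 12 against 384 of 997 in the class of 20 kb or more. The lists were chosen with earlier results known, and a counted summit can lie nearer to the start of another gene.

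Upstream of the receptor, 5 of the 9 genes in the list of ligands and the binding protein had a pooled summit, against 14257 of all 18164 genes. The 9 genes were short, with a median of 865 bp, against 1656 bp over all genes. An optimal summit was found for 2 of the 5 (40.0%), against 23.9% of all genes with a pooled summit, and nothing is read from so few genes. These were ImpL2, whose product binds and holds back insulin-like peptides, with 129 (rank 510) in an intron, and Ilp6, an insulin-like peptide gene, with 108 (rank 749) past its end. Replicates 3 and 4 had ImpL2 at ranks 420 and 781 and Ilp6 at 1270 and 613. Neither summit was within 500 bp of a TSS of its gene. Ilp1, Ilp2, Ilp3 and Ilp7 had no pooled summit, which at an unknown depth does not show that none is there.

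Among adaptors and the PI3 kinase arm, 6 of 11 genes had an optimal summit (54.5%), against 23.9% of all genes with a pooled summit. At a promoter 4 of 11 had one (36.4%), against 20.7% of all genes. With so few genes these shares are not set apart from those over all genes. The strongest was at wdb, a regulatory subunit of protein phosphatase 2A that acts on Akt, with 291 (rank 78; 96 in replicate 3 and 63 in replicate 4), 43 bp from the TSS. Pi3K21B, the adaptor subunit of PI3 kinase, followed with 208 (rank 166; 145 and 207), 5 bp from the TSS. trbl, an inhibitor of Akt activation, had 163 (rank 293) in an intron. Pi3K92E, the catalytic subunit, was at the other end with 30.8 (rank 11882), and chico, the insulin receptor substrate, had 39.6 (rank 6254). The Pi3K92E summit, 563 bp from the TSS, was at rank 1868 in replicate 3 and had no summit of replicate 4 within 200 bp. Of the 2 subunits of PI3 kinase, then, the adaptor had a summit in the optimal list and the catalytic one did not.

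For the TOR complexes and their regulators, 8 of 20 genes had an optimal summit (40.0%), against 23.9% of all genes with a pooled summit. At a promoter 5 of 14 had one (35.7%), against 20.7% of all genes. These counts too are small and are a description. The highest were alc, the beta subunit of the energy sensor AMPK, with 282 (rank 85), and Sesn, a sestrin that restrains TOR, with 278 (rank 90). In replicates 3 and 4, alc was at ranks 80 and 105 and Sesn at 65 and 126. The alc summit was 229 bp from the TSS of CG44286 and 920 bp from that of alc. The Sesn summit was 200 bp from the nearest TSS of Sesn and equally far from one of CG46429, so it cannot be given to Sesn alone. mio, a component of the amino acid sensing GATOR complex, had 165 (rank 281) in the downstream flank, where the nearest TSS was that of papi. The lowest were gig, which encodes Tsc2, with 29.1, and Nprl2, with 29.9. The signal of Tor, 80.9, was above the median of the list, 56.7.

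In the list of targets and outputs, 4 of 9 genes with a pooled summit had an optimal one (44.4%). The share over all genes was 23.9%, and 4 genes are too few to set apart from it. Sik3, a salt-inducible kinase, had 130 (rank 500), 205 bp from its TSS, REPTOR, a transcription factor repressed by TOR, had 114 (rank 674) in an intron, and Myc had 76.8 (rank 1505) in an intron. Tif-IA and Maf1, regulators of RNA polymerases I and III, had no pooled summit, which likewise does not show that none is there.

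The receptor tyrosine kinase, Ras and MAP kinase list, of the pathway in which Shc and Lk6 act, had optimal summits at 14 of 27 genes (51.9%). The share was 23.9% over all genes and 32.7% over all genes of 5 to 20 kb, the class that holds the median length of the 28 genes listed, 11070 bp. The list also holds genes of 20 kb or more, a class with a share of 38.5% over all genes. Some counted summits lay nearer to the start of another gene. The list was chosen with earlier results known, so its share is a description. At promoters 3 of 23 had one (13.0%), against 20.7% of all genes, and with 3 genes the share is not set apart from that. Raf, the kinase below Ras, had the highest signal, 347 (rank 49, with 60 in replicate 3 and 52 in replicate 4), in an intron 2272 bp from its nearest TSS. Of the 31 pooled summits of Raf, a gene of 48405 bp, 8 were optimal, while 1985 of all 30000 pooled peaks were. None of the 8 was within 500 bp of a TSS of Raf, and nothing is read from a single gene. spi, which encodes the main EGF receptor ligand, had 226 (rank 137), 125 bp from a TSS. aop, a transcriptional repressor regulated by MAP kinase, had 176 (rank 246). At the low end, rl, the MAP kinase gene, had no pooled summit, and tor, a receptor tyrosine kinase gene distinct from Tor, had 21.5 (rank 27057). At an unknown depth, the lack of a listed summit at rl does not show that none is there. No gene of the 5 lists had a signal as high as Shc or Lk6. Shc and Lk6 were chosen for strong peaks, so nothing is read from that.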

How the data were processed

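Per the labels, sonicated chromatin fragments of 200 to 800 bp were taken. Per the deposited file listing, a permissive peak list, meant as input for the irreproducible discovery rate (IDR) method, was derived for every replicate, and for both pooled, from alignments and 1 control file. The optimal list is the IDR-thresholded one. No source used here names the aligner, the peak caller, their versions or the IDR cutoff. The deposited signal of each peak, the authors' enrichment value, was ranked within each list (ties shared a mean rank). The dm6 lists were used; coordinates are 1-based. Genes were from Ensembl release 115 (BDGP6.54), and a summit counted for a gene if it lay in the gene body or within 2 kb. Replicate summits were matched within 200 bp. Genes named were the 8 members, genes starting within 500 bp of their optimal summits, the 3 highest optimal and 2 lowest of each list, and the 3 genes nearest in rank to Lk6 and to Shc; others singled out (Ilp3, Ilp7, CG9663, and genes starting in a region or nearest to a summit) were chosen after their values were seen. One gene that the rule names is not reported here. Members, lists and motifs were chosen with earlier results of these data known. Counts were made in Python 3.11.15 with pandas 2.3.3, on code tested on simulated lists.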

Additional observations from a re-analysis of the deposited data

How the results depend on the processing

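No paired analysis was possible because there was 1 group. Of the 8 genes with an optimal summit, 3 had one in the gene body alone and 4 with the strongest 1000 pooled peaks; of the 5 at a promoter, 3 did with that stricter list. Of the 34 other pathway genes, 21 did with the gene body alone and 21 with the stricter list. These settings take in fewer bases or fewer peaks. Shares over all genes are not given for them, so the lower counts are a description only. The 4 motif matches became 12 with 100 bases on either side of the summit, a wider window. No optimal list was remade without a replicate. Instead, the strongest 1985 peaks of the remaining replicate's own list were taken, so the counts for the 8 genes repeat those given above by replicate. They were 6 to 7 of the 8 genes in the region and 4 to 5 at a promoter. For the other pathway genes they were 33 to 35 in the region and 16 to 18 at a promoter. The median rank of the strongest summits within a replicate's list was 814 to 1237 (1101 in the pooled list). Flanks of 5 kb, TSS windows of 250 and 1000 bp, overlap by any base, and replicate matches within 100 bp (32 summits in both) or 400 bp (51) kept each count within 1.5 times its value as reported. Depth was unknown, so a missing summit is not shown to be absent.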

Other observations

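Short words shared by the 10 optimal windows of the 8 genes were counted after the windows had been seen, so they are a description. Of 723 words of 6 bases, 2 were in 4 windows. AAATAC was at Lk6, Akt, Tor and the InR summit 21590844, with 14.0% of all optimal windows and 6.69% of other pooled windows holding it. CGCTAG was at S6k, foxo, Thor and the InR summit 21619421, with 3.53% of optimal and 1.78% of other pooled windows holding it. No window held both words, and the windows of Shc and of the InR summit 21613472 held neither.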
